A study of Arabidopsis thaliana with 6 samples.

Results

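Glutathione transferases are enzymes that join the tripeptide glutathione to reactive or foreign molecules, and plants hold them as a large family split into classes named by Greek letters. The tau and phi classes, which are specific to plants or nearly so, act in the detoxification of herbicides and of products of oxidation. Members of the lambda class carry a cysteine in the active site and take glutathione off such molecules rather than adding it. Many tau and phi genes of *Arabidopsis* are known as fast markers of chemical stress, wounding and pathogen attack. Here the 14 genes of the family whose probe sets were named were followed in seedlings given a short chitin oligosaccharide. They were taken by gene symbol (GSTU for tau, GSTF for phi, GSTL for lambda, GSTT for theta and GSTZ for zeta) among the 13513 probe sets that pair with 1 gene, of 22746 probe sets in all. There were 11 tau genes, 2 phi genes and 1 lambda gene, each with a single probe set. RefSeq genes of TAIR10.1 include 48 genes under these symbols, and the other 34, with all theta and zeta genes, were not analysed here. Whether a probe set also bound mRNA of close relatives was not tested.

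Whole *Arabidopsis* seedlings of the ecotype Col-0, 14 days old and grown in liquid medium, were given the purified chitin tetramer (4mer) at 100 µg/mL in water, and mock seedlings were given the same amount of water alone. Both groups were wild type, the treatment lasted 30 min, and each group had 3 independent biological replicates, 1 Affymetrix ATH1 array each. Since whole seedlings were used, a lower level in some cells cannot be told apart from fewer such cells. The level of a gene is given as the signal of its probe set divided by the median signal of its array, so that a level of 1 is that of the median probe set. Signals of different probe sets are not compared with each other as amounts of mRNA.

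The arrays carried one common scaling, with means between 496.8 and 497.4 after trimming. The array of mock replicate 1 stood apart. Over the 14505 probe sets with a mean level of at least 0.5, its log2 levels correlated with those of the other arrays at 0.952 to 0.960, and the other pairs of arrays at 0.984 to 0.993. Where a log2 fold change printed for a gene moved by over 1.5 times or turned in sign without mock replicate 1, both values are therefore given. The labelled tissue was checked by leaf and root genes. Of 15 listed leaf names, the light-harvesting gene *LHCB4.1* was matched to a named probe set, at 51.7 to 77.7 in mock and 54.6 to 64.7 in 4mer seedlings. Of 16 listed root names, 3 genes were matched (*PYK10*, *EXPA7* and *EXPA18*), with summed levels of 51.3 to 78.6 in mock and 52.2 to 61.5 in 4mer seedlings. Most of this sum was *PYK10*, at 47.8 to 76.2 in mock and 49.6 to 58.7 in 4mer seedlings. Names without a match may still have a probe set on the array. The study lists one for *IRT1*, a root name not matched here. None of the matched genes was at 0 in any array, and mock replicate 1 gave the highest value of both sums. *EXPA7* went the other way, at 0.682 in mock replicate 1 and 1.24 to 1.48 in the other arrays. Its log2 fold change was 0.18, or -0.19 without mock replicate 1 (limma adjusted p = 0.838 and 0.378). The root hair gene *EXPA18* was at 1.71, 1.99 and 1.82 in mock replicates 1, 2 and 3 and lower in every 4mer array, at 1.34, 1.24 and 1.51, with a log2 fold change of -0.44 (limma adjusted p = 0.234). The part of this in the results below was not tested.

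No gene of the family passed the test with all arrays (limma, adjusted p under 0.05 over all probe sets), where 0.101% of all probe sets did. The gene with the smallest p was the tau gene *GSTU25*, whose mean was 1.5-fold higher with the 4mer. It was 1 of 14 in which all 4mer arrays lay above all mock arrays, a share near the 7.86% of all probe sets with that pattern. SAM, the permutation-based test named in the methods, called none of them and 0.0176% of all probe sets. At an unadjusted p under 0.05, *GSTU25* and *GSTU22* were higher and none was lower, against 4.54% of all probe sets higher and 6.86% lower. By the sign of the log2 fold change, 8 genes were higher and 6 lower, and 47.7% of all probe sets were higher and 52.3% lower. The median log2 fold change was 0.04 over the 14 genes and -0.01 over all probe sets. It was 0.08 in the tau class, and 0.04 in the 10 tau genes other than *GSTU25* (0.13 without mock replicate 1).

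**Figure D1:**
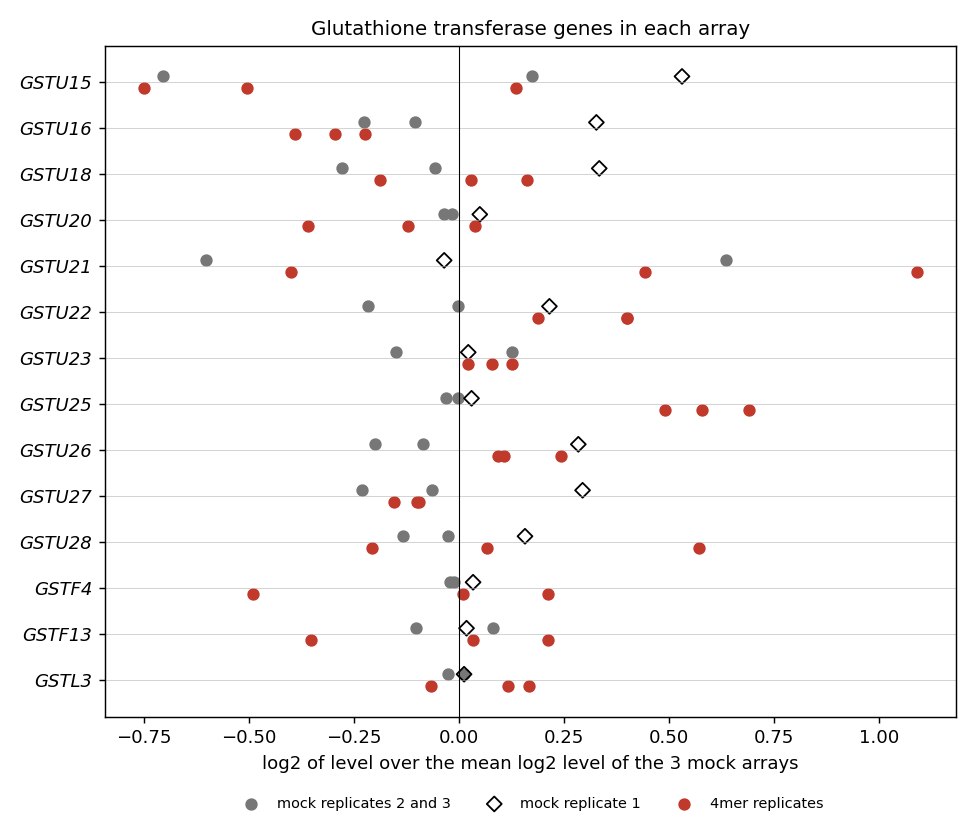
Each point is 1 array, placed on the x axis by the log2 level of the gene on the y axis relative to the mean of its 3 mock arrays (grey circles, mock replicates 2 and 3; open diamonds, mock replicate 1; red circles, 4mer). In *GSTU25* all red points lie to the right of all mock points, and in the other 13 genes the groups overlap.

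*GSTU25* (AT1G17180) encodes a tau enzyme known to conjugate the explosive trinitrotoluene, and its gene is induced by chemicals of that kind. Its level was 2.01, 1.93 and 1.97 times the array median in mock replicates 1, 2 and 3. In 4mer replicates 1, 2 and 3 it was 3.18, 2.94 and 2.77. The mock arrays lay close together, at 1.97 ± 0.04 (SD, n = 3), and the lowest 4mer array was well above the highest of them, with a 4mer mean of 2.96 ± 0.21 (SD, n = 3). The log2 fold change was 0.59 (standard error, SE, 0.09; 95% interval 0.39 to 0.79). The adjusted p of 0.0610 from limma missed the threshold, and by the unadjusted p of 1.35e-04 the gene was number 48 of the 22746 probe sets. An exact two-sided permutation test gave p = 0.10, the smallest that 3 arrays against 3 allow. *GSTU25* was the 1 gene of the family that was at least 1.5-fold higher, where 6.23% of all probe sets were, so that this count too was near the background.

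In mock replicate 1 *GSTU25* was at nearly the same level as in the other mock arrays. Without that array the log2 fold change was 0.60 (SE 0.08) and the limma adjusted p was 0.0173. It was then the only gene of the family to pass, against 1.49% of all probe sets in either direction and 0.8% in the direction of a higher level. Without any 1 of the other arrays the log2 fold change stayed between 0.54 and 0.64, while the adjusted p lay between 0.191 and 0.298. When the test was run on the 14505 brighter probe sets alone, the adjusted p was 0.0486.

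**Figure D2:**
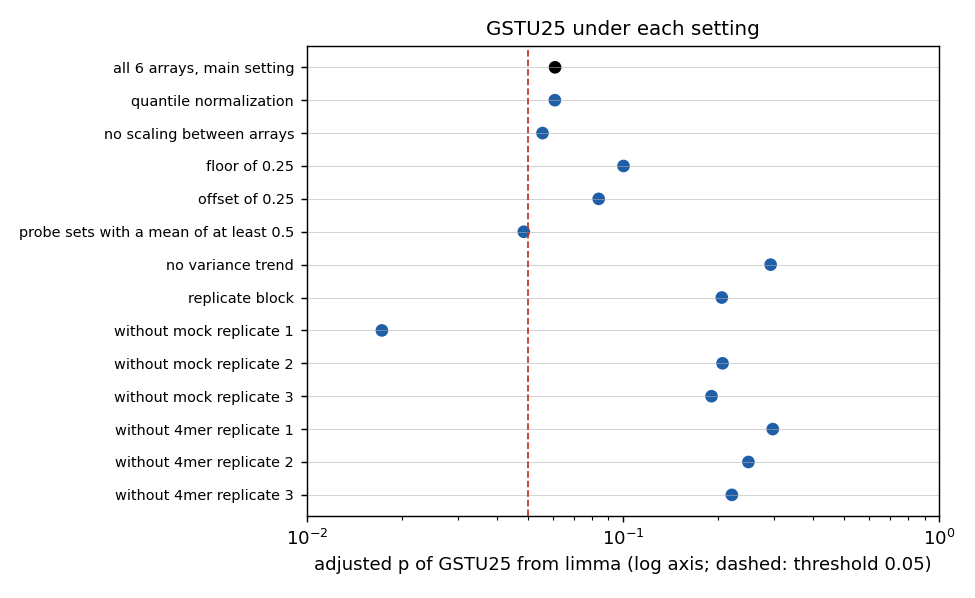
The adjusted p of *GSTU25* from limma (x axis, log scale) is shown for the main setting (black) and for each other setting (blue), with the threshold of 0.05 as a dashed line. It lies below the line without mock replicate 1 (0.0173) and among the brighter probe sets (0.0486), and above it in all other settings shown.

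*GSTU26* (AT1G17190) is the next protein-coding gene to *GSTU25* on chromosome 1, and it encodes a tau enzyme as well. Its level was 2.82, 2.02 and 2.18 in mock replicates 1, 2 and 3. In 4mer replicates 1, 2 and 3 it was 2.47, 2.74 and 2.50. Mock replicate 1 was the highest of all 6 arrays, so the groups overlapped. The log2 fold change was 0.15 (SE 0.13, limma adjusted p = 0.699). Without mock replicate 1 both remaining mock arrays lay below all 4mer arrays, and the log2 fold change was 0.29 (limma adjusted p = 0.123). Within each array, the log2 level of *GSTU25* minus that of *GSTU26* was -0.23 ± 0.22 (SD, n = 3) in mock and 0.20 ± 0.14 in 4mer seedlings. Every 4mer array exceeded the mock arrays in this quantity, which does not depend on the scaling of the arrays. The difference between groups of 0.44 had an exact two-sided permutation p of 0.10, the smallest possible, and was 0.31 without mock replicate 1, which had the lowest value (-0.49). This pair was 1 of 3 compared, all chosen with the values known. For *GSTU22* minus *GSTU21* the groups overlapped and differed by -0.05 (exact permutation p = 0.9), or by 0.08 without mock replicate 1. For *GSTU22* minus *GSTU23* they overlapped and differed by 0.25 (exact permutation p = 0.2). Without mock replicate 1 they differed by 0.35, and every 4mer array then exceeded both mock arrays in this pair too. With 3 arrays per group no such p could be under 0.10, so none could pass 0.05, adjusted or not.

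Another group of tau genes, *GSTU23*, *GSTU22*, *GSTU21* and *GSTU20*, lies on chromosome 1 with no other protein-coding gene between its members. None of them passed the test. *GSTU22* (AT1G78340) was at 1.46, 1.26 and 1.09 in mock replicates 1, 2 and 3 and at 1.67, 1.44 and 1.67 in 4mer replicates 1, 2 and 3. The groups overlapped only through mock replicate 1, which was slightly above 4mer replicate 2. Its log2 fold change was 0.33 (SE 0.14, 95% interval 0.01 to 0.65, unadjusted p = 0.0423, limma adjusted p = 0.423). Without mock replicate 1 the log2 fold change of *GSTU22* was 0.44 (limma adjusted p = 0.112), which again missed the threshold.

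*GSTU20* (AT1G78370) encodes a tau enzyme that binds the jasmonate-conjugating protein FIN219/JAR1 and acts in the response to far-red light. Its probe set was among the brightest, with levels of 37.5, 35.9 and 35.4 in mock replicates 1, 2 and 3. In 4mer replicates 1, 2 and 3 the levels were 37.2, 28.3 and 33.3. The 4mer arrays spread more widely than the mock arrays, and 4mer replicate 1 lay within the mock range. The log2 fold change was -0.15 (SE 0.12, 95% interval -0.43 to 0.14, limma adjusted p = 0.678).

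The probe sets of *GSTU21* and *GSTU23* were dim. *GSTU21* (AT1G78360) was at 0.163, 0.110 and 0.259 in mock replicates 1, 2 and 3 and at 0.226, 0.355 and 0.126 in 4mer replicates 1, 2 and 3. Its log2 fold change of 0.38 had an interval from -0.71 to 1.47 (SE 0.47, limma adjusted p = 0.798), which takes in a 1.5-fold change in either direction. *GSTU23* (AT1G78320) was steadier, at 0.432, 0.383 and 0.463 in mock replicates 1, 2 and 3 and at 0.464, 0.431 and 0.449 in 4mer replicates 1, 2 and 3. Its log2 fold change was 0.08 (SE 0.19, limma adjusted p = 0.911).

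**Figure D3:**
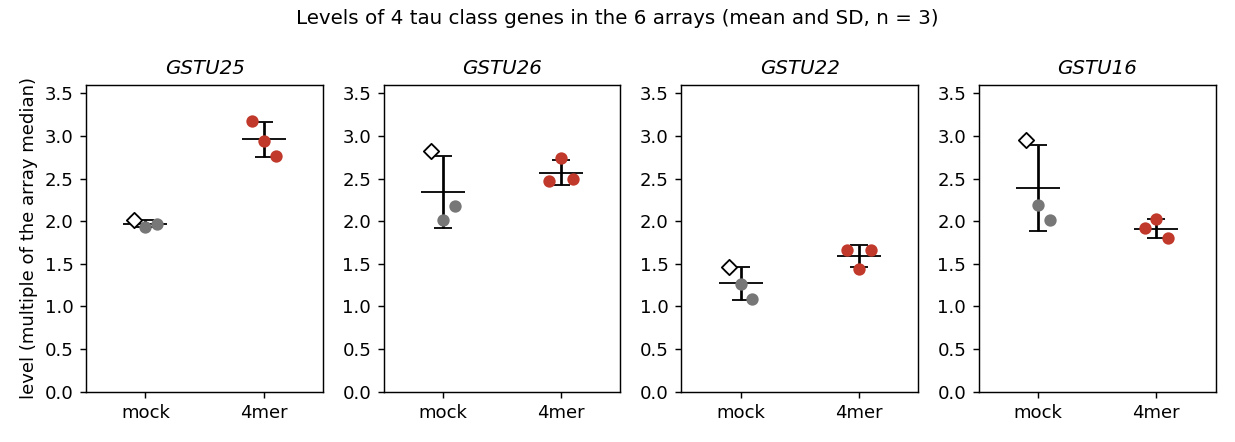
Levels (y axis, multiples of the array median) of *GSTU25*, *GSTU26*, *GSTU22* and *GSTU16* are shown in the 3 mock arrays (grey, with mock replicate 1 as an open diamond) and the 3 4mer arrays (red), with the mean and SD. In *GSTU26* and *GSTU16* mock replicate 1 lies apart from the other mock arrays, at 2.82 and 2.96, while in *GSTU25* the mock arrays lie between 1.93 and 2.01.

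The remaining tau genes are *GSTU15*, *GSTU16*, *GSTU18*, *GSTU27* and *GSTU28*. *GSTU16* (AT1G59700) was lower by the mean, with 2.96, 2.19 and 2.02 in mock replicates 1, 2 and 3 and 1.92, 2.02 and 1.80 in 4mer replicates 1, 2 and 3. The highest 4mer array was only just above the lowest mock array, and most of the difference lay in mock replicate 1. The log2 fold change was -0.30 (SE 0.15, limma adjusted p = 0.476) with all arrays and -0.14 (limma adjusted p = 0.455) without that array. *GSTU15* (AT1G59670), separated from *GSTU16* by 3 protein-coding genes, had the dimmest probe set of the family. Its levels were 0.0566, 0.0240 and 0.0442 in mock replicates 1, 2 and 3 and 0.0233, 0.0430 and 0.0276 in 4mer replicates 1, 2 and 3. The groups overlapped over most of their range, with a log2 fold change of -0.37 (SE 0.56, 95% interval -1.67 to 0.93, limma adjusted p = 0.837), and of -0.11 without mock replicate 1.

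*GSTU18* (AT1G10360) was at 2.17, 1.66 and 1.42 in mock replicates 1, 2 and 3 and at 1.76, 1.93 and 1.51 in 4mer replicates 1, 2 and 3. The group means were nearly equal, with 1.75 ± 0.38 (SD, n = 3) in mock and 1.73 ± 0.21 (SD, n = 3) in 4mer seedlings. The SE of the log2 fold change of *GSTU18* was 0.17 and its interval ran from -0.39 to 0.39 (limma adjusted p = 0.999). Without mock replicate 1 the log2 fold change was 0.17 (limma adjusted p = 0.542). *GSTU27* (AT3G43800) was at 6.24, 4.86 and 4.33 in mock replicates 1, 2 and 3 and at 4.57, 4.76 and 4.75 in 4mer replicates 1, 2 and 3. Its 4mer arrays lay within a narrow range inside that of the mock arrays. The log2 fold change of *GSTU27* was -0.12 (SE 0.13) with all arrays and 0.03 without mock replicate 1 (limma adjusted p = 0.767 and 0.858). *GSTU28* (AT1G53680) was at 1.17, 1.03 and 0.954 in mock replicates 1, 2 and 3 and at 0.906, 1.09 and 1.56 in 4mer replicates 1, 2 and 3. Here 4mer replicate 3 was the highest array and 4mer replicate 1 the lowest, and the log2 fold change was 0.14 (SE 0.20, limma adjusted p = 0.823), or 0.22 without mock replicate 1.

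The phi genes *GSTF4* (AT1G02950) and *GSTF13* (AT3G62760) were close to the same level in both groups, and both have dim probe sets. *GSTF4* was at 0.494, 0.475 and 0.478 in mock replicates 1, 2 and 3 and at 0.486, 0.344 and 0.559 in 4mer replicates 1, 2 and 3. *GSTF13* was at 0.449, 0.470 and 0.413 in mock replicates 1, 2 and 3 and at 0.514, 0.347 and 0.454 in 4mer replicates 1, 2 and 3. In both genes 4mer replicate 2 was the lowest of the 6 arrays and 4mer replicate 3 or 1 the highest. Their log2 fold changes were -0.09 and -0.04 (SEs 0.22 and 0.21, limma adjusted p = 0.914 and 0.967). *GSTL3* (AT5G02790), the lambda gene, was at 11.8, 11.5 and 11.8 in mock replicates 1, 2 and 3. In 4mer replicates 1, 2 and 3 it was 13.2, 11.2 and 12.7. Its 4mer arrays spanned the mock arrays, with a log2 fold change of 0.07 (SE 0.09, limma adjusted p = 0.790).

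The precision differed among the genes. The 9 genes with a mean level of at least 0.5 had standard errors of 0.09 to 0.20 on the log2 scale, and the 5 dimmer ones (*GSTU15*, *GSTU21*, *GSTU23*, *GSTF4* and *GSTF13*) had 0.19 to 0.56. The 95% interval of the log2 fold change held 0 in 12 genes. In 7 of these (*GSTU18*, *GSTU20*, *GSTU23*, *GSTU26*, *GSTU27*, *GSTF13* and *GSTL3*) it lay within a 1.5-fold change either way. In *GSTU15*, *GSTU16*, *GSTU21*, *GSTU28* and *GSTF4* it held 0 and also reached a 1.5-fold change, so that a difference of that size is not excluded.

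**Figure D4:**
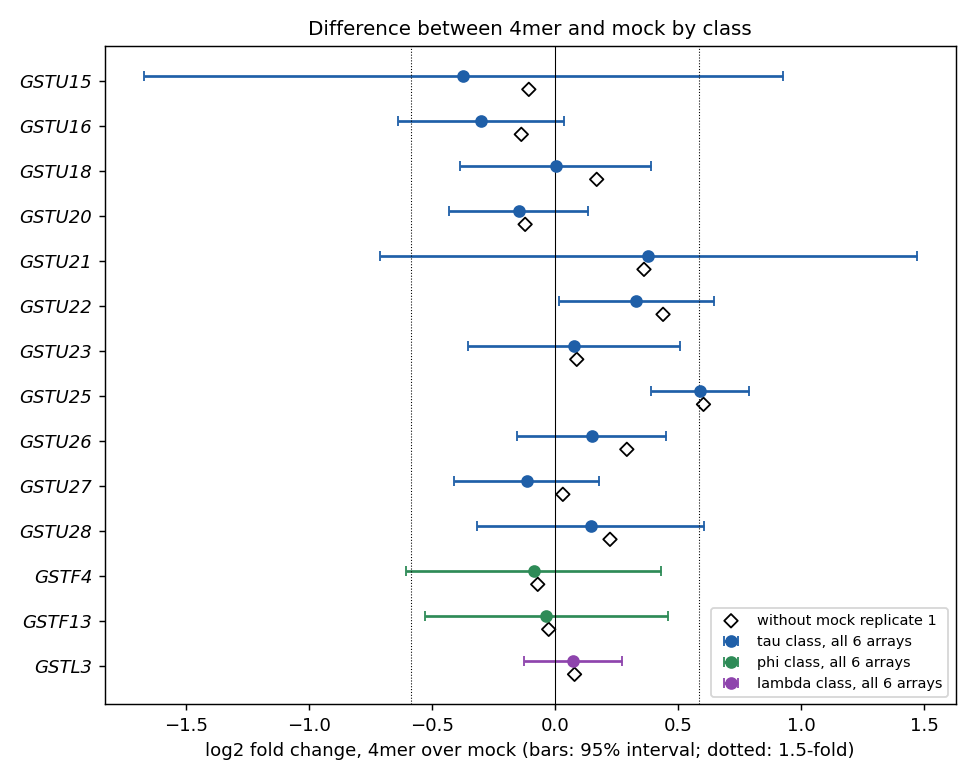
Filled points give the log2 fold change of each gene (4mer over mock, x axis) with its 95% interval from limma, coloured by class, and open diamonds the value without mock replicate 1. The interval of *GSTU25*, 0.39 to 0.79, lies furthest from 0, and the intervals of the dim *GSTU15* and *GSTU21* are the widest.

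Mock replicate 1 was the highest of the mock arrays in 10 of the 14 genes, and 51% of all probe sets had that order. Among the 9 brighter genes of the family it was the highest in 8, against 47.5% of the probe sets with a mean level of at least 0.5. In this array *LHCB4.1* was at 77.7 and *PYK10* at 76.2, where the other arrays gave 51.7 to 64.7 and 47.8 to 58.7. The root genes *EXPA7* and *EXPA18* did not share this. *EXPA7* was at 0.682 in mock replicate 1 and at 1.24 to 1.48 in the other arrays. *EXPA18*, at 1.71, was the lowest of the mock arrays there. The part of that array's makeup in the levels of the family was not tested. Without it, 9 of the 14 genes were higher with the 4mer by sign, against 50.3% of all probe sets, and the median log2 fold change was 0.08 in the family and 0.17 in the tau class. *GSTU22*, *GSTU25* and *GSTU26* then had all 4mer arrays above both mock arrays, a pattern found in 16.5% of all probe sets. The same 3 genes had an unadjusted p under 0.05, in the direction of a higher level that 7.73% of all probe sets showed.

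The genes that supply and recycle glutathione, and those that act beside the family in detoxification and defense metabolism, were taken from 7 lists of 131 names in all. Some of these names are aliases of the same gene. Under them 10 genes were matched to a named probe set, 5 higher and 5 lower by sign, and none of the 10 passed the test. The names without a match may still have probe sets on the array, which were not examined here. Of the 2 glutathione reductases, which restore oxidised glutathione, *GR1* was lower and *GR* higher. *GR1* (AT3G24170), the form of the cytosol and peroxisomes, was at 10.9, 10.9 and 10.01 in mock replicates 1, 2 and 3. In 4mer replicates 1, 2 and 3 it was at 9.30, 9.29 and 9.57, below all mock arrays, with a log2 fold change of -0.18 (limma adjusted p = 0.430). *GR* (AT3G54660), the form of plastids and mitochondria, was at 8.26, 9.59 and 9.65 in mock replicates 1, 2 and 3. In 4mer replicates 1, 2 and 3 it was at 10.1, 10.2 and 10.7, above all mock arrays, with a log2 fold change of 0.17 (limma adjusted p = 0.496). Mock replicate 1 was the lowest array for *GR*, and without it the log2 fold change was 0.10 (limma adjusted p = 0.350).

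Of the sulfate assimilation genes, which lead to the cysteine of glutathione, the ATP sulfurylase *APS3* was higher and its relative *APS4* lower. *APS3* (AT4G14680) was at 2.66, 2.75 and 2.72 in mock replicates 1, 2 and 3 and at 3.31, 3.02 and 3.09 in 4mer replicates 1, 2 and 3. The groups did not overlap, and the log2 fold change was 0.21 (SE 0.08, limma adjusted p = 0.377). *APS4* (AT5G43780) was at 11.04, 11.3 and 10.8 in mock replicates 1, 2 and 3 and at 9.40, 10.6 and 9.83 in 4mer replicates 1, 2 and 3. Here all 4mer arrays were below all mock arrays, with a log2 fold change of -0.15 (limma adjusted p = 0.503). The sulfite reductase gene *SIR* had a log2 fold change of -0.01 (limma adjusted p = 0.967), or -0.04 without mock replicate 1. In 4 of the 10 genes the groups did not overlap, 2 in each direction, where 20.3% of all probe sets did not overlap.

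Of the genes of xenobiotic response and of glucosinolates, 5 were matched to a named probe set and none had groups that did not overlap. The pathogen-responsive glucosyltransferase genes *UGT73B5* and *UGT73B4* had log2 fold changes of 0.42 and 0.58 (limma adjusted p = 0.487 and 0.657), and the groups overlapped in both. *UGT73C1*, a glucosyltransferase of cytokinins, was at 0.0451 or below in every array, too dim for its log2 fold change of -0.64 (SE 0.74) to be told from 0. *AER*, of the xenobiotic response list, was at 8.69 in mock replicate 1 and at 4.76 to 5.99 in the other arrays. Its log2 fold change was -0.12, or 0.16 without mock replicate 1 (limma adjusted p = 0.861 and 0.355). The glucosinolate gene *UGT74B1* had a log2 fold change of 0.01 (limma adjusted p = 0.976), or -0.07 without mock replicate 1. None of the listed genes of the other soluble classes, of glutathione peroxidases or of the vacuolar pumps of glutathione conjugates was matched to a named probe set.

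**Figure D5:**
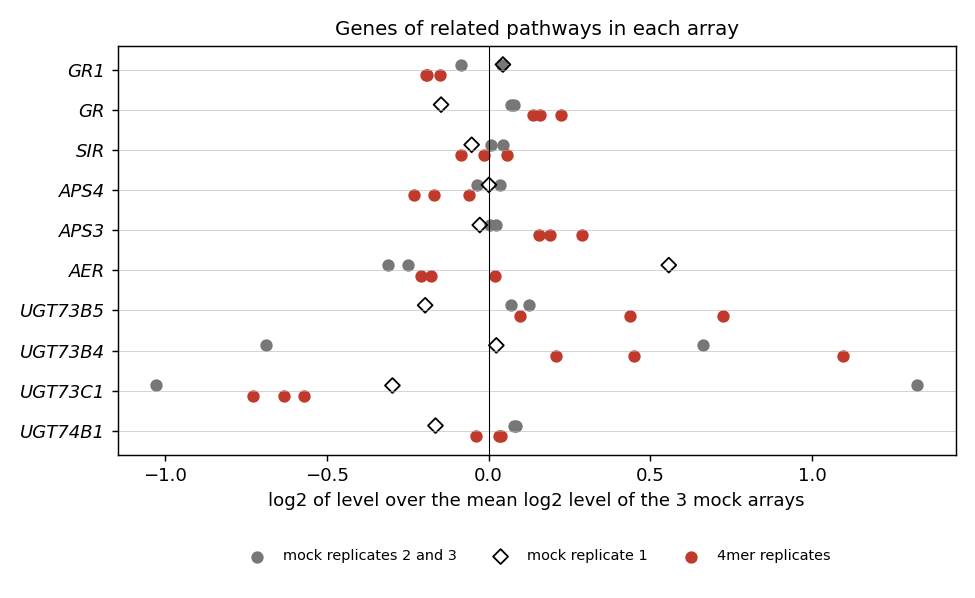
Each point is 1 array, placed by the log2 level of the gene on the y axis relative to the mean of its 3 mock arrays (symbols: grey circles, mock replicates 2 and 3; open diamonds, mock replicate 1; red circles, 4mer). The groups do not overlap in *GR1*, *GR*, *APS4* and *APS3*, of which *GR* and *APS3* are higher with the 4mer.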

How the data were processed

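The deposited values are probe set signals of Affymetrix ATH1 arrays, an intensity on a linear scale, which the authors computed with the MicroArray Suite software after scanning. The scaling target and detection calls are not given in the sources used here, and 1 to 4 signals per array are 0. After the methods, signals were floored at 0.01 and scaled to the median of their array, and log2 was taken. The groups were compared by lmFit and eBayes (trend = TRUE) of limma 3.58.1, run in R 4.3.3, over all 22746 probe sets, with no covariate and Benjamini-Hochberg adjustment. The methods name SAM without a threshold, so it was an alternative. Full statistics were given for *GSTU25*, any gene past the threshold and the 12 genes of smallest unadjusted p. They were also given for the brightest and dimmest of each class and those that turn sign without mock replicate 1. Of each related list, up to 3 genes of smallest p were named, and *AER* beside them because its sign turned. Probe sets that pair with several genes (503) or are not listed (8730) were not named. The genes, lists and settings were chosen with earlier results of these data known. The scripts were tested on simulated data. Same-numbered replicates did not deviate together (correlations of -0.04, -0.04 and -0.03). Promoter and protein sequences were not used here. The number of arrays limits the precision. Figures were drawn with matplotlib 3.10.9.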

Additional observations from a re-analysis of the deposited data

How the results depend on the processing

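The log2 fold change of *GSTU25* lay between 0.53 and 0.63 over the settings of scaling, floor, offset, filter, variance model and block, and between 0.54 and 0.64 when any 1 array was left out. Its adjusted p from limma, 0.0610 with all arrays, lay between 0.0173 and 0.298, and passed in 2 settings: without mock replicate 1 (log2 fold change 0.60), and among probe sets with a mean level of at least 0.5 (log2 fold change 0.59), where fewer probe sets were tested and 1 gene of the family passed. The number of family genes past the threshold ran from 0 to 1 when 1 array was left out, and SAM called 0. The number at an unadjusted p under 0.05, which was 2, fell to 1 with a floor of 0.25, with no variance trend and with the replicate block, and ran from 1 to 3 when 1 array was left out. Without mock replicate 3 it was 2, of which 1 was higher and 1 lower. That was the only setting in which a family gene under that p was lower. Over all probe sets 23 passed, 10 with a floor of 0.25, 59 in the filtered set, 2 with no variance trend, 4 by SAM and 0 with the replicate number as a block, and from 0 to 338 when 1 array was left out, the highest without mock replicate 1. With the replicate block the adjusted p of *GSTU25* was 0.206; no family gene gained or lost an adjusted call with it. In 11 of 176 gene and setting pairs, in 5 genes, the sign turned. *GSTU18* had -0.00053 with an offset of 0.25 and ran from -0.14 to 0.17 when 1 array was left out. *GSTF13* had 0.00245 with no scaling between arrays and ran from -0.16 to 0.12 when 1 array was left out. Over the same settings *GSTU27* ran from -0.23 to 0.031, *GSTU28* from -0.071 to 0.32 and *GSTF4* from -0.24 to 0.11. The within-array difference of *GSTU22* minus *GSTU21* turned from -0.05 to 0.077 without mock replicate 1, a setting added after seeing the data. The cause of these changes was not tested. The median log2 fold change of the family ran from -0.01 to 0.10, that of the tau class from 0.00 to 0.17 and that of the phi class from -0.15 to 0.12 when 1 array was left out. Taking the mean of several probe sets gave no other value, since each gene has 1, and *GSTU15* lies at the floor of 0.25 in every array.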
